A study of Mus musculus with 8 samples.

Results

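The p53 pathway and the genes of senescence were described here by where ASH2L was found around them. The 10 genes were selected by name: Trp53 itself, its inhibitors Mdm2 and Mdm4, its targets Cdkn1a, Bax, Bbc3 and Ccng1, the Ink4-Arf genes Cdkn2a and Cdkn2b, and Rb1, out of 21938 protein-coding genes on the assembled mouse chromosomes. They were chosen from earlier results of the same list of sites, so all values below are descriptions with no test. Each gene was read against the 6444 ASH2L sites of the study, of which 6428 lie on assembled chromosomes of mm10, within 1 kb and 3 kb of any annotated transcription start site (TSS) and up to 200 kb on either side.

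ASH2L is a core subunit of the COMPASS/KMT2 complexes, which methylate lysine 4 of histone H3 at promoters and enhancers. The cells were iMEF, an immortalised line of mouse embryo fibroblasts whose way of immortalisation is not given in the sources used here. All 8 libraries came from cells that carry floxed Ash2l alleles from which exon 4 was removed through an inducible Cre-ER, and that live on human ASH2L, fused to FKBP-F36V and 2 HA tags and delivered with a lentivirus. Precipitation was with antibodies to HA. The 4 groups of 2 libraries each were ASH2L ChIP without treatment, ASH2L ChIP after 1 h of dTAG-13, which binds the FKBP part and sends the fusion protein to degradation, and the input of each of these conditions. The study derived single clones by limiting dilution, so a group stands for a clonal line and not for several animals, and the labels do not name the clone. The list used here gives a position for each site over all samples and no signal, so it shows neither depth nor replicate spread. The study also names a list of sites that changed after 1 h of dTAG-13, which was not analysed here.

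The p53 protein, made from Trp53, is a transcription factor that is stabilised by DNA damage and oncogenic stress. It is held low by MDM2, a ubiquitin ligase that p53 itself induces, and by the related MDM4. Its targets stop the cell cycle or start apoptosis, while the products of Cdkn2a and Cdkn2b act beside it: p16Ink4a and p15Ink4b inhibit CDK4 and CDK6 and so keep RB active, and p19Arf inhibits MDM2. In cultured mouse fibroblasts the Arf-p53 axis is known as a main barrier to immortal growth.

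ASH2L sites lay at the inhibitors of p53 and at the Ink4-Arf genes. None was centred within 3 kb of a TSS of Trp53, Cdkn1a, Bax, Bbc3 or Ccng1. Mdm2, grouped here with the inhibitors, is also induced by p53. A site was centred within 1 kb of a TSS, called a promoter site below, for 4 of the 10 genes (40.0%, Wilson 95% interval 16.8 to 68.7%, counting error only): Mdm2, Mdm4, Cdkn2a and Cdkn2b. The genes were chosen with results known and Cdkn2a and Cdkn2b are neighbours, so this interval does not test a difference from other genes. Over all protein-coding genes the share was 14.0%, and among those with a TSS less than 1 kb from a CpG island it was 19.0%. All 10 genes have such an island, those with a promoter site and those without, as do 16099 of the 21938 coding genes. Within 3 kb the count rose to 5 of 10 with Rb1, against 15.4% of all genes. The members have a median of 4.5 TSSs and all coding genes a median of 3. Each TSS is a further chance of a nearby site, and the part of TSS number in these shares was not tested. Just inside the limit of 1 kb lay a site of Cdkn2a at 901.5 bp, and just outside it the site of Rb1 at 1052.5 bp.

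**Figure D1:**
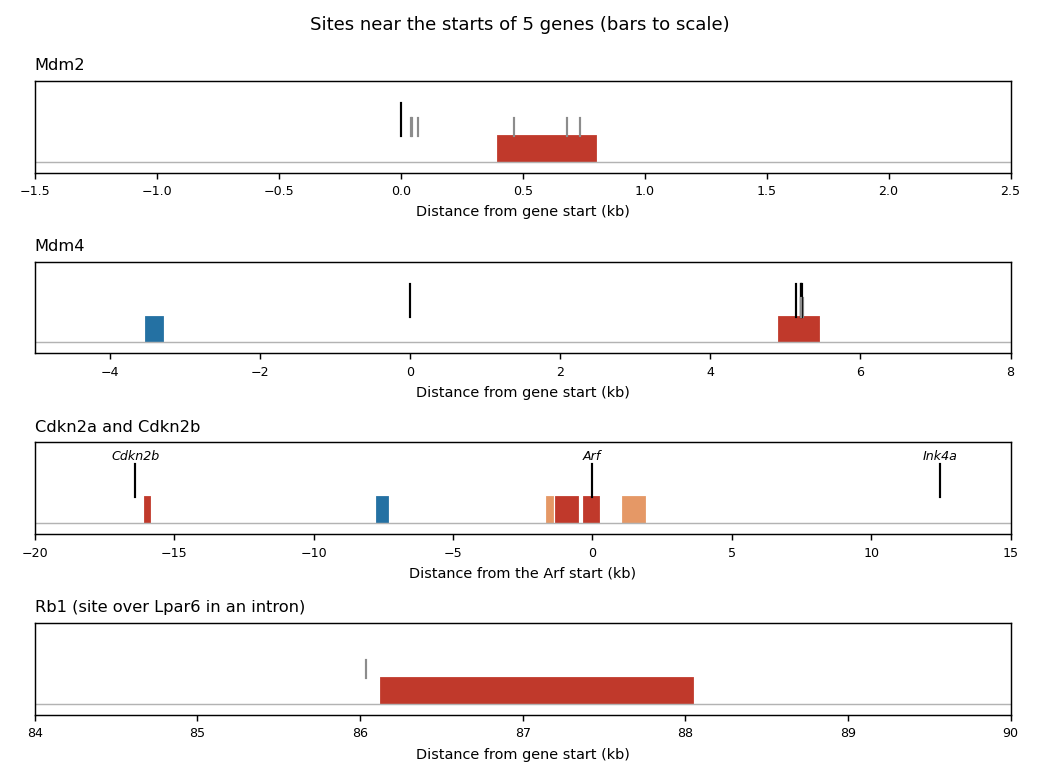
Sites at the starts of Mdm2, Mdm4, Cdkn2a with Cdkn2b, and Rb1, with distance from the gene start in kb along the direction of transcription (for the Ink4-Arf genes, from the p19Arf start, marked Arf). Filled bars are sites to scale, red within 1 kb of any TSS, orange 1 to 3 kb and blue farther; tall black ticks are TSSs of coding transcripts and short grey ticks those of non-coding ones. Mdm2 has its 405-bp site downstream of the coding start, Mdm4 its 538-bp site at the downstream group of starts, and the p16Ink4a start has none within 3 kb.

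Mdm2 encodes the main ubiquitin ligase of p53. The gene (ENSMUSG00000020184.15, chr10:117688875-117710758, minus strand) has 8 TSSs, and its site covered 405 bp at chr10:117709956-117710360. The centre lay 600 bp downstream of the start of the coding transcripts, in intron 1, and 80 bp upstream of the start of the non-coding transcript Mdm2-206. The site did not overlap exon 1 (chr10:117710552-117710758) and covered 73 bp of exon 2 (chr10:117709946-117710028). It thus ended short of the upstream promoter, P1, and lay over P2, the promoter at the end of intron 1 that is known as the p53-responsive one. Its GC content was 70.4% with 40 CpG dinucleotides, and its width was above that of 72.1% of all promoter sites, whose median is 304 bp.

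The sequence of P2 shows what the site covers. Printed is chr10:117710029-117710328 (GRCm38.p6, minus strand, 5′ to 3′), which ends at the last base of intron 1, with the matches in capitals.
Mdm2 P2: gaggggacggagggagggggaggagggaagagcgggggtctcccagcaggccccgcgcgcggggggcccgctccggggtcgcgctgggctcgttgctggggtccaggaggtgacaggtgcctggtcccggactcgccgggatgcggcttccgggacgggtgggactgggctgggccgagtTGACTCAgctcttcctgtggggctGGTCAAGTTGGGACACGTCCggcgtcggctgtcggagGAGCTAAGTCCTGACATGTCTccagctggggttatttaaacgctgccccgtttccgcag
The capitals mark an AP-1 motif (TGACTCA) at chr10:117710142-117710148 and 2 matches to the p53 response element. The first match in reading order lies at chr10:117710105-117710124 and the other, with 1 spacer base, at chr10:117710067-117710087. Each differed from the consensus, a pair of decamers with 20 letters in all, at 3 positions. This limit of 3 mismatches was set after the P2 sequence had been seen. With it, searched on both strands, an element was found in 8.54% of the central 200-bp windows of all sites, in 5.83% of those of promoter sites and in 11.7% of the 32851 promoters of 300 bp in the RefSeq table (GRCm38.p6). AP-1 motifs, TGACTCA and TGAGTCA, were in 2.13% of the promoter-site windows and 5.2% of the promoters. Of the 5 promoter sites of the members, the one of Mdm2 held both motifs.

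Mdm4 encodes a relative of MDM2 that binds and inhibits p53. The gene (ENSMUSG00000054387.13, chr1:132959484-133030561, minus strand) has 13 TSSs, and its promoter site of 538 bp (chr1:133025110-133025647) lay over a dense group of them. The centre was 21.5 bp upstream of the TSS at 133025357. The gene start as annotated, at 133030561, lies 5182.5 bp upstream of this site, and a non-promoter site of 220 bp at chr1:133033855-133034074 lay 3403.5 bp upstream of that start. The promoter site had a GC content of 60.6% and 31 CpGs, and was wider than 85.4% of promoter sites. The 28 bases around its ETS motif, shown because it is the one motif found in the central window, are at chr1:133025345-133025372 on the minus strand, with the motif in capitals.
Mdm4 ETS: gtttgagaggCCGGAAGTggtgctgccg
The ETS letters searched, CCGGAAGT on both strands, were present in 5.33% of promoter-site windows and 3.89% of RefSeq promoters.

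Cdkn2a encodes p16Ink4a and p19Arf from separate starts that share downstream exons. The gene (ENSMUSG00000044303.6, chr4:89274471-89294653, minus strand) has its p19Arf start at 89294653 and its p16Ink4a start at 89282192, 12.5 kb downstream. The sites lay at the p19Arf start. One of 543 bp (chr4:89294400-89294942) was centred 18 bp upstream of it and overlapped 254 bp of the first p19Arf exon, and another of 804 bp (chr4:89295153-89295956) was centred 901.5 bp upstream. Sites of 797 bp (chr4:89292753-89293549, 1502 bp downstream, in the intron) and 225 bp (chr4:89296049-89296273, 1508 bp upstream) flanked them. Having 2 or more promoter sites applied to 2.07% of all coding genes, and 72 genes (0.328%) had 4 or more sites within 3 kb, as Cdkn2a did. The 4 sites lie close together and became 1 when sites within 1 kb of each other were merged.

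At the p16Ink4a start, no site was centred within 3 kb, and the nearest lay 10959 bp upstream. The RefSeq promoter of p19Arf had a GC content of 77.0% and 45 CpGs in 300 bp and that of p16Ink4a 60.3% and 12. The median over the table was 52.7% and 7 CpGs. The bases of the central site upstream of the p19Arf start, chr4:89294654-89294942 (minus strand), are shown for this density, with each CpG in capitals.
Cdkn2a Arf: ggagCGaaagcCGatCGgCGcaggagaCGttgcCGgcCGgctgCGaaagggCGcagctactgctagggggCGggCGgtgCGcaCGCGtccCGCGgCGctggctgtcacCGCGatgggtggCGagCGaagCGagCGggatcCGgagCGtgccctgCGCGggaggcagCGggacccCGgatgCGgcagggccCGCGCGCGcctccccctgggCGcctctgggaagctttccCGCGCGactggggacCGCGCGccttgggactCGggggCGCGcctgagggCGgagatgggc
This stretch of 289 bases holds 45 CpGs. The 543-bp site as a whole had a GC content of 71.8% and 69 CpGs, and the 804-bp site 63.4% and 60. The intronic 797-bp site differed in composition, with a GC content of 38.4% and 13 CpGs.

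Cdkn2b encodes p15Ink4b and starts 16.4 kb upstream of p19Arf. The gene (ENSMUSG00000073802.5, chr4:89306299-89311039, minus strand) has 1 TSS. Its site, chr4:89310503-89310702, was 200 bp wide, the smallest width on the list, which 1281 sites have. The centre lay 436.5 bp downstream of the TSS in intron 1, and 37 bp overlapped exon 1. Its whole sequence on the minus strand is shown beside that of p19Arf, again with CpGs in capitals.
Cdkn2b: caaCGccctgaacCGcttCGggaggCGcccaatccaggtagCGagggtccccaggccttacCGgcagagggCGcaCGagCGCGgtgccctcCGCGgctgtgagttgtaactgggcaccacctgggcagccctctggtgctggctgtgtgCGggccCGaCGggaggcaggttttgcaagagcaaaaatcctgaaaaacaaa
It holds 15 CpGs at a GC content of 64.5%. From the p19Arf intron to the Cdkn2b promoter, 6 sites fell in 17950 bp and covered 2968 bp of it. The sixth, of 399 bp (chr4:89301969-89302367), lay between the genes, 7515 bp upstream of the p19Arf start. Leaving out the sites of minimum width removed Cdkn2b from the genes with a promoter site, which left 3 of 10 beside 12.9% of all genes.

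Rb1 encodes the retinoblastoma protein, which restrains E2F factors. The gene (ENSMUSG00000022105.6, chr14:73183673-73325822, minus strand) had no site within 3 kb of its coding start at 73325822, from which the nearest site lay 59380 bp upstream, at the promoter of Itm2b. The site that brought Rb1 within 3 kb was at chr14:73237775-73239692 and lay inside the gene, over the promoter of Lpar6, a lysophosphatidic acid receptor gene. At 1918 bp it was wider than 99.0% of promoter sites. Its edge came within 94 bp, and its centre within 1052.5 bp, of the start of the non-coding transcript Rb1-206. Counted from the edge of sites, Rb1 became the fifth gene with a promoter site, beside 14.2% of all genes. With the annotated gene start alone, Mdm4 and Rb1 dropped out and 3 of 10 remained both within 1 kb (12.3% of all genes) and within 3 kb (13.8%).

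Trp53 (ENSMUSG00000059552.13, chr11:69580359-69591873) had its nearest site 44.4 kb from any of its 4 TSSs, at the promoter of Fxr2. Cdkn1a, which encodes the CDK inhibitor p21 (ENSMUSG00000023067.14, chr17:29090976-29100727), had its nearest site 58138.5 bp upstream at Srsf3, a splicing factor gene. Bax, which encodes a pore-forming protein of the mitochondrial membrane (ENSMUSG00000003873.11, chr7:45461697-45466898), had a site 6605.5 bp away at Ftl1, the ferritin light chain gene. So the sites nearest to these 3 genes belonged to promoters of neighbours. Bbc3, which encodes the BH3-only protein PUMA (ENSMUSG00000002083.13, chr7:16308393-16318205), had its nearest site 362538.5 bp away. Ccng1, which encodes cyclin G1 (ENSMUSG00000020326.7, chr11:40748552-40755311), had its nearest site 35279 bp upstream, farther than 3 kb from any TSS.

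The promoters of these 5 genes ranged widely in composition. In the RefSeq table their GC content ran from 52.7% at Trp53, with 10 CpGs, to 78.0% at 1 of 3 Bbc3 promoters, with 39 CpGs. The fewest CpGs, 2, were in a Cdkn1a promoter with a GC content of 54.7%. By the same mismatch rule, a p53 element was found in a promoter of each of Trp53, Bax, Bbc3, Ccng1 and Cdkn1a and in 1 of Mdm4, which is 6 of the 14 member promoters, while Mdm2 had none in its table entry, which is P1. The 14 promoters are those of the 9 members other than Rb1. Over all promoters of the table the share was 11.7%, and since the limit of 3 mismatches was set after P2 had been seen, these counts are a description of letters and nothing was tested. Among the 4 genes of the members with a promoter site, only the site at Mdm2 held a p53 match in its central window. Elements were also matched in the flanking Cdkn2a sites at 1502 bp and 1508 bp.

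**Figure D2:**
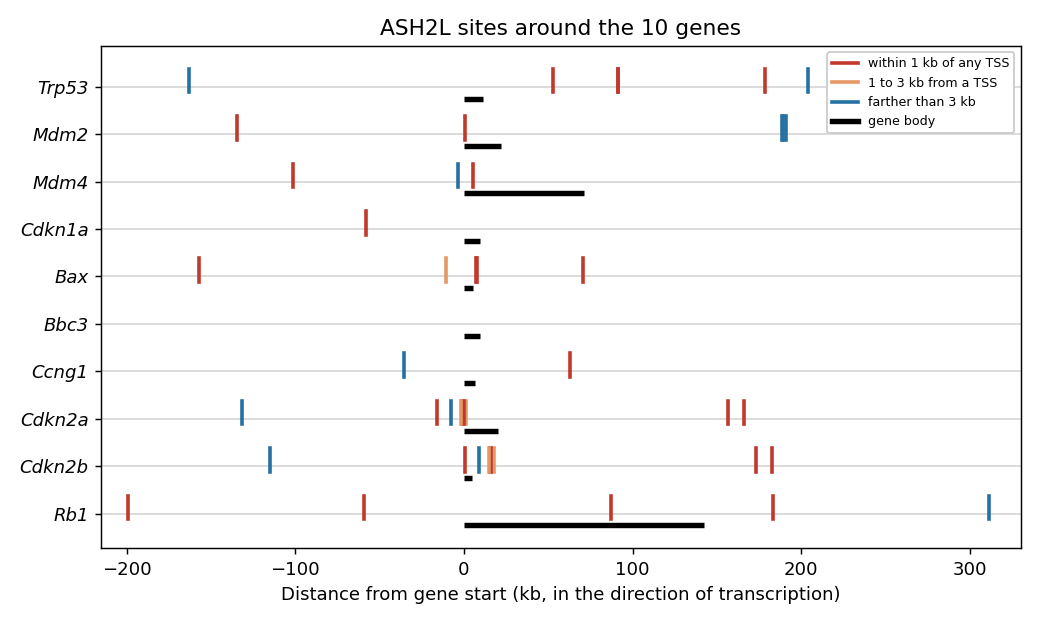
ASH2L sites up to 200 kb on either side of the 10 genes, by distance from the gene start in kb along the direction of transcription; upright bars are sites, coloured by distance from any TSS, and black bars are gene bodies. Cdkn2a and Cdkn2b share the same 9 sites, Bbc3 has none, and 3 of the 5 sites of Mdm2 sit together about 189 to 191 kb downstream.

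Within 200 kb the genes differed widely in the number of sites. Cdkn2a and Cdkn2b had 9 sites each, which are the same 9. Trp53 had 6, Mdm2, Bax and Rb1 5 each, Mdm4 3, Ccng1 2, Cdkn1a 1 and Bbc3 0. The median of the members was 5 and that of all coding genes 1, and 68.2% of all coding genes had at least 1 site, as 9 of the 10 members did. By share of coding genes with fewer sites, Cdkn2a and Cdkn2b stood at the 99.1 percentile, Trp53 at 95.9, and Mdm2, Bax and Rb1 at 92.1, so Mdm2 had no more sites here than several others. With sites within 1 kb of each other merged, Cdkn2a and Cdkn2b had 6, Trp53 and Rb1 5, Bax 4, Mdm2 and Mdm4 3, Ccng1 2, Cdkn1a 1 and Bbc3 0.

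Some of these sites were promoter sites of neighbouring coding genes. At Trp53, 3 of 22 coding neighbours had a promoter site (Fxr2, Eif4a1 with 2 sites, and Polr2a, the large subunit of RNA polymerase II). At Bax it was 3 of 26 (Snrnp70, Ftl1 and Izumo1), at Rb1 4 of 6 (Rcbtb2, Lpar6, Itm2b and Sucla2) and at Cdkn1a 1 of 9 (Srsf3). At Mdm2 it was 1 of 4 (Rap1b, a small GTPase gene, with a site of 773 bp), at Mdm4 1 of 4 (Ppp1r15b), at Ccng1 1 of 3 (Mat2b), and at Bbc3 0 of 12. The Ink4-Arf genes had Mtap and each other.

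Sites farther than 3 kb from every TSS, called non-promoter sites, put Mdm2 in a different place among the members depending on how they were counted. Of its 5 sites within 200 kb 3 were non-promoter, against 2 each for Trp53, Cdkn2a and Cdkn2b, 1 each for Mdm4, Ccng1 and Rb1 and 0 for Cdkn1a, Bax and Bbc3. That is 7.16 per Mb for Mdm2, 2.18 for the median of the other 9 and 0 for the median of all coding genes, and 97.6% of all genes had fewer. The 3 sites lay together at chr10:117519690-117522172 and became 1 when sites within 1 kb of each other were merged, which placed Mdm2 below Trp53, Cdkn2a and Cdkn2b with 2 each and at the 70.2 percentile. Within 100 kb Mdm2 had 0 non-promoter sites and 1 site in all, its own P2 site, below Cdkn2a and Cdkn2b with 6 each.

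**Figure D3:**
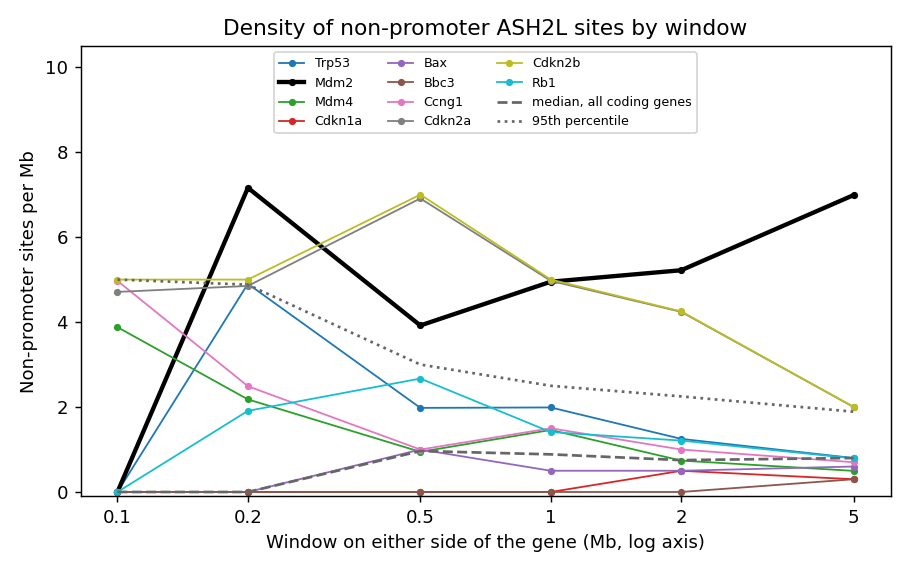
Non-promoter sites per Mb (linear axis) against the size of the window on either side of each gene (Mb, log axis); each line is a gene, Mdm2 is thick, and the dashed and dotted lines are the median and the 95th percentile of all coding genes. Mdm2 is at 0 at 0.1 Mb, 7.16 at 0.2 Mb, 3.92 at 0.5 Mb and 6.99 per Mb at 5 Mb, while Cdkn2a and Cdkn2b fall from about 7 at 0.5 Mb to 2.0.

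In wider windows the order of the genes changed. At 0.5 Mb on either side, Mdm2 had 3.92 non-promoter sites per Mb and lay below Cdkn2a (6.91) and Cdkn2b (7.0). At 1 Mb the 3 genes were level, each with 10 such sites. At 2 Mb Mdm2 had 21 (5.22 per Mb) and Cdkn2a and Cdkn2b 17, and at 5 Mb Mdm2 had 70 (6.99 per Mb) and they had 20. The other 7 members had 3 to 8 at 5 Mb, and the median of all coding genes was 8. Counting sites of every class within 5 Mb, Mdm2 had 109, the median of the other 9 was 28 and that of all coding genes 26. Mdm2 stood at the 99.8 percentile there by both counts.

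**Figure D4:**
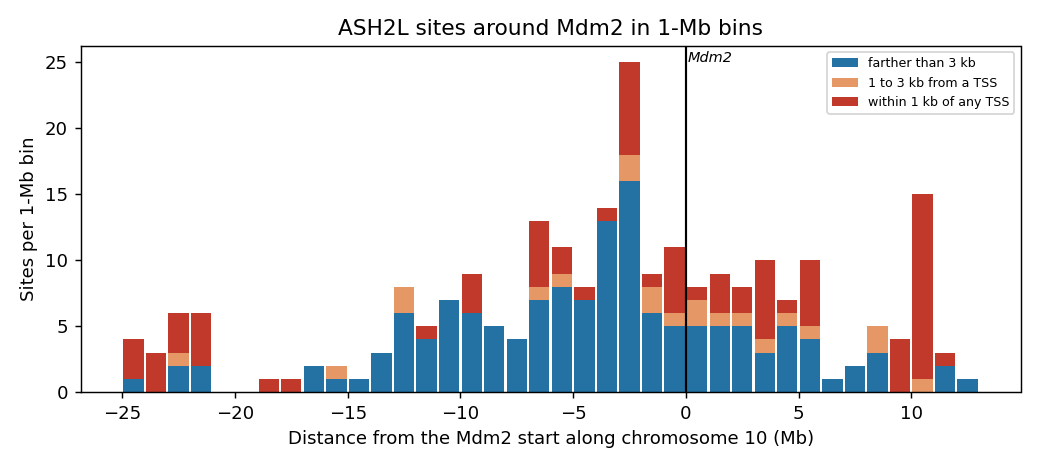
Sites in bins of 1 Mb along chromosome 10 by distance from the Mdm2 start (Mb), stacked by class (blue farther than 3 kb from any TSS, orange 1 to 3 kb, red within 1 kb). Each of the 20 bins from 14 Mb before to 6 Mb after Mdm2 holds at least 3 non-promoter sites, with the peak of 16 at 3 to 2 Mb before it.

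Counted in bins of 1 Mb from the start of Mdm2, 20 bins in a row held at least 3 non-promoter sites each, from chr10:103710758 to 123710758. This rule was set after the positions had been seen. The stretch held 184 sites, 124 of them non-promoter, and its fullest bins, with 13 and 16 non-promoter sites, lay 4 to 2 Mb before Mdm2. The same count gave 2 bins for Cdkn2a and Cdkn2b, 1 for Trp53 and 0 for the remaining 6. Across all chromosomes, with bins counted from the chromosome's start, this was the longest such run (20 bins), followed by 1 of 8 bins on chromosome 15. Without sites of minimum width, the run around Mdm2 had 10 bins.

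The bins were chosen by their non-promoter sites, so the density and share of these sites inside are set by the rule and are given as a description. Inside the stretch 67.4% of sites were non-promoter, and 36.3% outside it. Per Mb this was 6.2 against 0.837 for non-promoter sites and 2.2 against 1.23 for promoter sites. Coding genes were sparser inside, at 5.3 per Mb against 8.07, and 28 of 106 (26.4%) had a promoter site against 14.0% of those outside. Promoter sites had a median width of 374.5 bp inside and 303 bp outside. The non-promoter sites had a median width of 226.5 bp inside and 228 bp outside, and 34.7% and 33.2% were of minimum width. The 124 inside averaged 44.9% ± 3.4 (SD) in GC content and those outside 45.4% ± 5.55. AP-1 motifs were in 11.3% of them inside (14 sites, Wilson 95% interval 6.85 to 18.1%) and 11.7% outside. No value of signal in the ChIP or input libraries is given over the stretch, and its cause was not tested.

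Among the genes of the pathway lists, 2 more lie in the stretch and were picked out after their values were seen. E2f7, which encodes a repressing E2F factor, had a promoter site at 325.5 bp, 6.97 Mb before Mdm2. Hmga2, which encodes an architectural protein of chromatin, had a site at 1051 bp, just outside the limit, 2.77 Mb after Mdm2.

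How the run around Mdm2 compared with those of the other genes changed with the distance that joins neighbouring sites. With at most 200 kb between centres, its run had 8 sites over 564 kb (chr10:117376203-117941106). The runs of Cdkn2a and Cdkn2b had 19 sites over 497 kb, that of Rb1 11 over 1050 kb, and that of Bax 8 over 561 kb. With at most 100 kb the P2 site of Mdm2 stood alone, and with at most 400 kb its run had 105 sites over 8550 kb, against 23 at Cdkn2a and 18 at Bax.

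**Figure D5:**
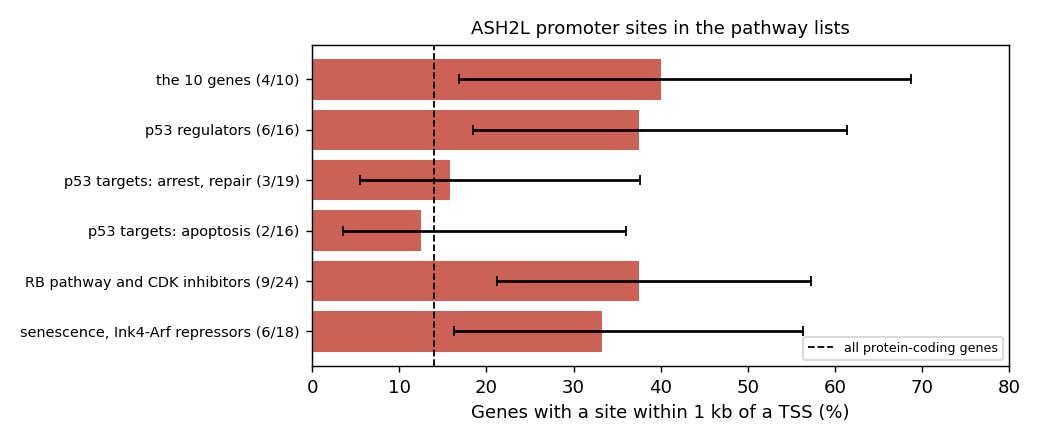
Share of genes with a site within 1 kb of a TSS (%), for the 10 genes and 5 lists of related genes. Error bars are Wilson 95% intervals over genes, and the dashed line is the 14.0% of all coding genes. The genes and lists were chosen with results known, so the intervals do not test a difference from that line. The lists of p53 regulators and of the RB pathway both stand at 37.5%, and the p53 target lists at 15.8% and 12.5%.

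In the wider pathway, sites were listed at regulators of p53, cell cycle genes, senescence genes and some p53 targets. Over 5 lists, 26 of 93 matched genes (28.0%) had a promoter site, against 14.0% of all coding genes. Of the 93, 87 have a CpG island, as do 16099 of the 21938 coding genes. Of the 87, 29.9% had a promoter site, against 19.0% of all coding genes with an island. These lists were also drawn up with results of these data known, so the intervals below do not test a difference from all coding genes. The median number of TSSs per gene was 7.5 for p53 regulators, 5 for the RB pathway and 4 for each list of p53 targets. It was 2 for the senescence genes and 3 for all coding genes, and its part in the shares was not tested. Among regulators of p53, 6 of 16 had a promoter site (37.5%, Wilson 95% interval 18.5 to 61.4%). The widest sites were at Ep300, an acetyltransferase gene (1579 bp), Hipk2, a kinase gene (683 bp), and Sirt1, a deacetylase gene (665 bp), and Atr, Trp53bp1 and Usp7, named after their values were seen, made up the rest.

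Among genes of the RB pathway and CDK inhibitors 9 of 24 had a promoter site (37.5%, 21.2 to 57.3%). Cdkn2c, which encodes p18Ink4c, had the widest, at 2571 bp, followed by Cdkn1b, which encodes p27 (475 bp), and Rbl2, which encodes p130 (278 bp). Among senescence genes and repressors of Ink4-Arf it was 6 of 18 (33.3%, 16.3 to 56.3%), led by Hmga1 (378 bp), Bmi1, a Polycomb gene that represses Ink4-Arf (334 bp), and Igfbp7 (275 bp).

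The lists of p53 targets had shares near the 14.0% of all coding genes. For arrest, repair and metabolism it was 3 of 19 genes (15.8%, 5.52 to 37.6%), namely Plk2 with 4 promoter sites (the widest 329 bp), Ei24 (294 bp) and Zmat3 (269 bp). For apoptosis it was 2 of 16 (12.5%, 3.5 to 36.0%), namely Cycs, the cytochrome c gene (216 bp), and Mcl1, which encodes an inhibitor of apoptosis (214 bp). Counting only genes with a CpG island, the shares of these target lists were 15.8% and 13.3%, below the 19.0% of all coding genes with an island. On the same count they were 40.0% for p53 regulators, 37.5% for the RB pathway and 42.9% for the senescence genes. Whether the lists differ from each other or from all coding genes was not tested.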

How the data were processed

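ASH2L was measured by ChIP-seq in 4 ASH2L and 4 input libraries. Per the paper's methods, the authors cleaned reads using Trim Galore, mapped them to mm10 using BWA, filtered alignments using SAMtools, pooled replicates using Picard, and called narrow peaks by MACS (MACS2 in the submitters' processing notes, which also name DESeq2 and deepTools); versions are not given in the sources used here. The deposited list holds positions alone, with starts counted from 0 and printed here from 1, and no other measured value.

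Sites were related to 132629 TSSs of GENCODE mouse release M21 (the study names M25) by their centres, with Python 3.11.15, NumPy 2.4.6 and pandas 2.3.3. CpG islands were unions of 200-bp windows above 50% in GC and 0.6 in observed over expected CpG. Counting steps were tested on simulated sites. The members and lists were chosen with earlier results of these data known. Named are the 10 genes, neighbours within 200 kb with a promoter site, the 3 genes with the widest promoter site per list, and the 5 genes with the most sites within 200 kb, 1 per Mb and none within 1 Mb of Mdm2, while E2f7, Hmga2, Atr, Trp53bp1 and Usp7 were named after their values were seen. Alternatives were other distances, TSS sets, site widths, windows and merging. Bin counts, windows of 1, 2 and 5 Mb and merging at each gene were added after the data were seen.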

Additional observations from a re-analysis of the deposited data

How the results depend on the processing

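Of 64 alternative values for 17 quantities, 43 were within 1.5 times the reported value and 21 were not. The count within 3 kb was 3 with the gene start alone. Sites per 100 kb around Mdm2 (1.19) were 0.456 in windows of 100 kb and 0.716 with merged sites, and the median of the other 9 (0.957) was 0.518 at 1 Mb, 0.374 at 2 Mb and 0.28 at 5 Mb. The percentile of Mdm2 by all sites (92.1) was 48.3 at 100 kb. Non-promoter sites per 100 kb around Mdm2 (0.716) were 0.0 at 100 kb, 0.392 at 500 kb, 0.239 with merged sites and 0.477 without sites of minimum width. The median of the other 9 (0.218) was 0.0 at 100 kb, 0.0999 at 500 kb, 0.1 at 2 Mb and 0.07 at 5 Mb, and the non-promoter percentile of Mdm2 (97.6) was 0.0 at 100 kb. With merged sites these percentiles fell to 78.1 and 70.2. They were counted as within 1.5 times the reported ones, a limit that percentiles this high cannot pass upward and pass downward only after a large fall. The run around Mdm2 (8 sites, 564 kb) was 1 site (0.0 kb) at 100 kb and 105 sites (8550 kb) at 400 kb, and its 20 bins became 10 without sites of minimum width. The windows of 1, 2 and 5 Mb and the bins were added after seeing the data. No paired analysis was possible because the list has no value per sample. It shows neither depth nor replicate spread, and the response to dTAG-13 was not analysed here.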

Other observations

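Away from Mdm2, the coding genes with the most sites within 200 kb, taking 1 gene per Mb, were not members of the p53 pathway lists. They were 5730596B20Rik on chromosome 6 with 46 sites (2 of them non-promoter), Evx2, a homeobox gene on chromosome 2, with 32 (6), Lgr5, an R-spondin receptor gene on chromosome 10, with 22 (14), and Foxp1 and Mecom, transcription factor genes on chromosomes 6 and 3, with 17 each (7 and 8). Windows run from the outermost TSSs and so differ in length. Per 100 kb these genes had 11.5, 8.0, 4.16, 1.71 and 1.79 sites in the same order. Cdkn2a had 2.18 and Cdkn2b 2.25, above Foxp1 and Mecom. Lgr5 lies in the stretch of chromosome 10 described around Mdm2 and had no promoter site of its own.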
